A study of Mus musculus with 12 samples.

Results

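Mouse hepatocytes with 2 floxed Sox9 alleles and Cre (Sox9-null by design) were compared between 2 ways of activating YAP in the liver: deletion of the kinases Mst1 and Mst2, and expression of the mutant YAP S127A. The comparison ran directly between the 2 Mst-null libraries and the 2 YAP-null libraries. In these short names null refers to Sox9 alone, and Mst and YAP to the way of activation. YAP-null cells thus received YAP S127A and are not null for YAP. The comparison covered the 10681 of 16116 genes with a log2 value of at least 1 in at least 2 of the 12 libraries. Mst-null mice carried ROSA26-lsl-TdTomato with floxed alleles of 3 genes (Sox9 fl/fl, together with Mst1 fl/fl and also Mst2 fl/fl) and received AAV2/8-TBG-Cre, a virus whose TBG promoter restricts Cre to hepatocytes. Their TdTomato-positive cells were taken 4 weeks after injection. YAP-null mice were Sox9 fl/fl and received AAV2/8-TBG-Cre together with AAV2/8-TBG-YAP S127A-P2A-GFP, and their YAP S127A-expressing cells were taken 3 weeks after injection. Each activation had a group with 1 floxed Sox9 allele (Mst-het and YAP-het, otherwise treated alike) and a control that received AAV2/8-TBG-GFP: mice with ROSA26-lsl-TdTomato that were both Mst1 fl/fl and Mst2 fl/fl beside the Mst groups, and wild type mice beside the YAP groups, all GFP-positive. Each of the 6 groups had 2 libraries. Injection was at 3 weeks of age throughout, and the sort was against Epcam and CD45 in all groups. Activation, weeks after injection, virus, floxed background and sorting colour differ together between the Mst-null and YAP-null groups and cannot be told apart.

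Mst1 and Mst2, whose genes are Stk4 and Stk3, head the Hippo kinase cascade, which through the Lats kinases phosphorylates YAP and keeps it out of the nucleus. YAP S127A lacks a serine that Lats phosphorylates, so it escapes part of that control, and nuclear YAP acts on genes with TEAD transcription factors. In the liver this pathway restrains growth, and hepatocytes with active YAP can take on biliary and progenitor features; Sox9 is a transcription factor of bile duct cells that is switched on in such hepatocytes.

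Values are deposited log2 CPM, the log2 of reads on 1 amplicon per gene scaled to a common library total, and differences are on that scale, Mst-null minus YAP-null unless another pair is named, ± SE. A gene is called at a Benjamini-Hochberg adjusted p under 0.05 in limma, over all 10681 genes. Linear sums ran from 879620 to 1011690 by library. Libraries of a group had r of 0.953 to 0.982 with each other over all genes, a description, since genes are no independent replicates. Read totals are not given, so the depth is unknown. Hepatocyte genes were high in all 4 null libraries (Alb 15.46 and 15.53 in Mst-null, 16.03 and 14.97 in YAP-null), while the gate genes Epcam (0.85 and 0.82 in Mst-null, against 1.51 and 1.92 in YAP-null) and Ptprc, which encodes CD45 (1.11 and 1.60 in Mst-null, against 0.71 and 1.53 in YAP-null), were low. Gene by gene the means of both control groups were equal in the deposited values, to within a median of 0.00849, so the controls had been set equal before deposition. The SE of the direct difference therefore holds no error of the controls. Taking the change of each null group from its own control and testing the difference of these changes gives differences that depart from the direct ones by at most 0.134 in the called genes, with an SE that holds both controls, and 29 calls (0.272% of genes) in place of 269.

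The targeted genes were examined first. Sox9 stood at 1.41 and 1.29 in Mst-null libraries, against 2.28 and 2.62 in YAP-null libraries. It was 6.47 and 5.998 in Mst-het, 4.41 and 5.28 in YAP-het, 4.33 and 3.13 in the floxed GFP control and 3.90 and 3.59 in the wild type GFP control. Sox9 was lower than the controls in Mst-null (-2.38 ± 0.38, adjusted p = 0.000873), and in YAP-null the difference was -1.29 ± 0.38 (adjusted p = 0.052), short of the threshold. Between the null groups Sox9 differed by -1.10 ± 0.38 (adjusted p = 0.149), which did not pass. Stk4 had 4.49 and 4.09 in Mst-null and 5.10 and 4.83 in YAP-null (-0.68 ± 0.25, adjusted p = 0.184), and Stk3 had 3.98 and 4.45 in Mst-null and 3.87 and 3.49 in YAP-null (0.54 ± 0.27, adjusted p = 0.366). Neither kinase gene was called, and since it is not given where the amplicons lie relative to the floxed exons, these values do not test the deletion. Yap1 was lower, 6.67 and 6.69 in Mst-null, against 7.45 and 8.01 in YAP-null (-1.05 ± 0.24, adjusted p = 0.0303); the sources used here do not say whether its amplicon reads the injected construct. The Yap1 call ended without either Mst-null library (-1.04 and -1.06) and without YAP-null library 2 (-0.77).

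Of 10681 genes, 269 were called (2.52%), 128 higher in Mst-null (1.2%) and 141 lower (1.32%). The median difference over all genes was -0.02. The values of the Mst-null and YAP-null libraries were without overlap in all 269 called genes and in 47.8% of all 10681 genes. Among the higher genes 124 differed by at least 1 and 44 by at least 2, and among the lower genes 137 and 57. In the 128 higher genes the median difference was 1.61, and in the 141 lower genes the median size was 1.73. The controls show where these genes sat. Of the 128 higher genes, 64 lay above the control mean in Mst-null and below it in YAP-null, 60 lay above it in both, 3 below it in both and 1 above it in Mst-null and equal to it in YAP-null. Of the 141 lower genes, 83 lay below the control mean in Mst-null and above it in YAP-null, 44 above it in both and 14 below it in both. Mst-null was farther from the controls in 103 of the 128 higher genes, and YAP-null in 99 of the 141 lower genes. Called genes were chosen because the 2 groups differ, which by itself favours such positions. The positions were not counted over all 10681 genes, so these counts are a description only. Against its own control 829 genes were called in Mst-null (7.76%; 735 higher, 94 lower) and 760 in YAP-null (7.12%; 709 higher, 51 lower). These shares of higher genes move with the scaling: with library medians made equal the splits were 472 and 167 in Mst-null and 388 and 96 in YAP-null, and the median change against the controls was -0.07 in Mst-null and -0.06 in YAP-null, beside 0.17 and 0.21 as deposited. Leaving out 1 of the 4 null libraries left 95 to 121 genes called, and 51 of the 269 were called in all 4 cases.

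**Figure D1:**
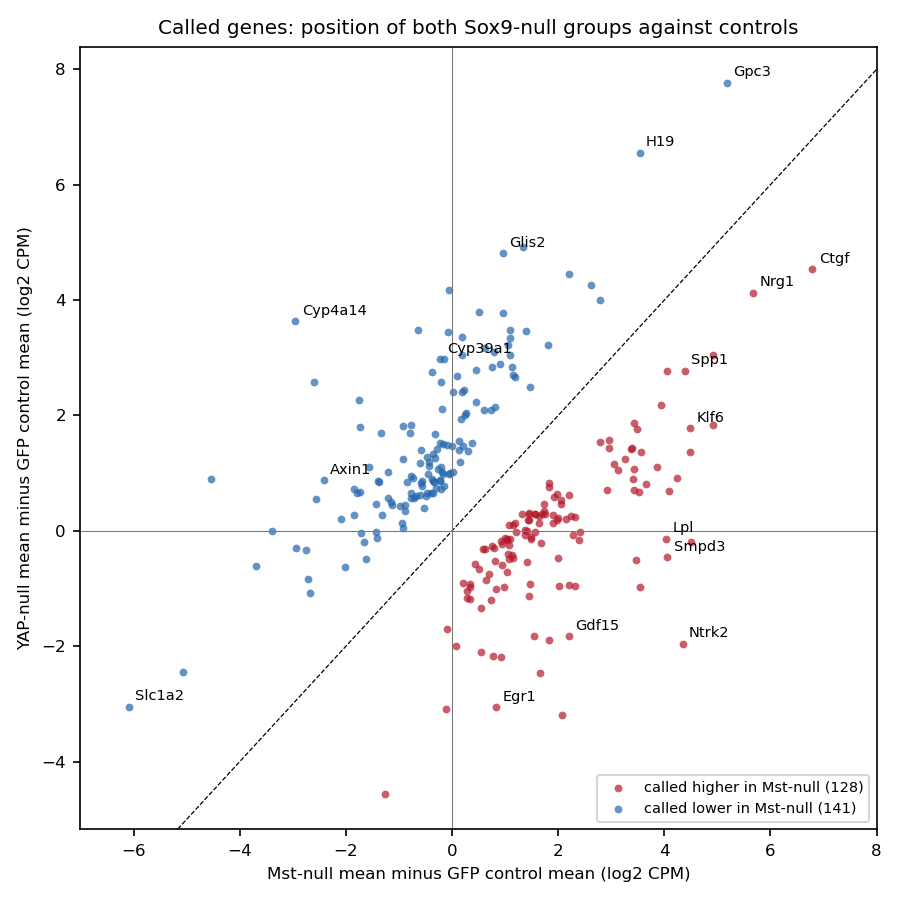
Position of each called gene against the mean of the GFP control libraries, Mst-null on the horizontal axis and YAP-null on the vertical axis, in log2 CPM, 1 point per gene. The 128 genes called higher in Mst-null lie below the dashed diagonal of equal values and the 141 called lower above it; 64 of the higher and 83 of the lower genes lie on opposite sides of the controls in the 2 groups.

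Among genes higher in Mst-null the largest difference, by the same limit on level as for all 15 genes described (a mean of at least 4 in the higher group), was that of Ntrk2, which encodes the neurotrophin receptor TrkB (GRCm38 chr13:58806569-59133970, plus strand, GENCODE M21). Ntrk2 had 8.67 and 8.24 in Mst-null libraries, against 1.36 and 2.95 in YAP-null libraries, a difference of 6.30 ± 0.51 (adjusted p = 5.68e-06), or 78.8-fold. The control means were 4.07 and 4.14, so Ntrk2 rose over its control in Mst-null (4.38, adjusted p = 4.85e-05) and fell in YAP-null (-1.99, adjusted p = 0.0272). Tmem51, a transmembrane protein gene, had the same arrangement, with 5.43 and 5.04 in Mst-null, against 1.40 and 1.63 in YAP-null (3.72 ± 0.32, adjusted p = 8.8e-06). It was 1.84 against the control in Mst-null (adjusted p = 0.00163) and -1.92 in YAP-null (adjusted p = 0.00133). Gdf15, a stress-induced cytokine of the TGF-beta superfamily, was the third of this kind among the 15 genes with the largest rise: 9.13 and 8.70 in Mst-null, against 5.72 and 4.06 in YAP-null (4.03 ± 0.45, adjusted p = 0.000176), a change of 2.22 in Mst-null and -1.84 in YAP-null against the controls (adjusted p = 0.00585 and 0.0215). Calls of all of these held without any 1 of the 4 null libraries.

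A further 8 of these 15 genes rose over the control in Mst-null and were not called in YAP-null. Smpd3, a neutral sphingomyelinase that makes ceramide, had 8.71 and 7.71 in Mst-null, against 3.36 and 4.05 in YAP-null (4.51 ± 0.34, adjusted p = 4.55e-06). Its change was 4.07 over the control in Mst-null (adjusted p = 2.12e-06) and -0.47 in YAP-null (adjusted p = 0.483). Lpl, lipoprotein lipase, which frees fatty acids from circulating triglyceride and is low in adult hepatocytes, had 9.54 and 10.14 in Mst-null, against 5.72 and 5.61 in YAP-null (4.17 ± 0.51, adjusted p = 0.000383), at control means of 5.76 and 5.85. Cib3, of the calcium and integrin binding family, had 10.26 and 9.64 in Mst-null, against 3.84 and 6.68 in YAP-null (4.69 ± 0.74, adjusted p = 0.0024), and its YAP-null libraries lay far apart. Serpinb6b, a serine protease inhibitor, had 8.01 and 7.57 in Mst-null, against 5.05 and 3.86 in YAP-null (3.33 ± 0.34, adjusted p = 7.56e-05). Krt23, a type I keratin gene, had 6.02 and 5.99 in Mst-null, against 3.08 and 2.13 in YAP-null (3.40 ± 0.45, adjusted p = 0.00079). In YAP-null the changes of Lpl, Cib3, Serpinb6b and Krt23 against the control were -0.18, -0.21, 0.91 and 0.70, none called (adjusted p = 0.901, 0.921, 0.133 and 0.416). Ifi27l2b, of an interferon-inducible family, had 7.58 and 7.33 in Mst-null, against 4.72 and 3.63 in YAP-null (3.28 ± 0.33, adjusted p = 5.61e-05). Gstm3, a mu class glutathione transferase, had 12.37 and 10.95 in Mst-null, against 6.66 and 7.63 in YAP-null (4.51 ± 0.74, adjusted p = 0.00333); close paralogs make its counts uncertain. The chemokine gene Cxcl14 had 4.999 and 5.31 in Mst-null, against 1.87 and 2.13 in YAP-null (3.15 ± 0.62, adjusted p = 0.0146). Calls of this paragraph held without any 1 of the 4 libraries except 2. Gstm3 was not called without YAP-null library 1 (4.03), nor Cxcl14 without Mst-null library 2 (3.00) or either YAP-null library (3.03 and 3.28).

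The other 4 genes of this set differed in where they sat. Osbpl3, an oxysterol-binding protein homologue, rose over the control in both groups (4.51 in Mst-null and 1.35 in YAP-null, adjusted p = 1.96e-06 and 0.0399), with 9.56 and 8.73 in Mst-null, against 5.63 and 6.42 in YAP-null (3.12 ± 0.37, adjusted p = 0.000322). Egr1, an immediate early transcription factor, was 8.86 and 8.48 in Mst-null, against 4.79 and 4.76 in YAP-null (3.90 ± 0.29, adjusted p = 4.55e-06), with control means of 7.78 and 7.89: the YAP-null value was called lower than the control (-3.11, adjusted p = 8.76e-06), and the Mst-null change was 0.89 (adjusted p = 0.0823). Tff3, a trefoil peptide of mucous epithelia, had 4.62 and 5.92 in Mst-null, against 2.70 and -0.38 in YAP-null (4.12 ± 0.72, adjusted p = 0.00652). The Tff3 difference rests in part on YAP-null library 2, without which it was 2.58 and not called. Mup20, a male urinary pheromone protein of hepatocytes, had 14.26 and 14.62 in Mst-null, against 10.28 and 11.87 in YAP-null (3.37 ± 0.75, adjusted p = 0.028). Its call was lost without either Mst-null library (3.55 and 3.19) or YAP-null library 1 (2.58), and the Mup genes are near-identical copies, so the value is uncertain.

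On the lower side, fatty acid omega-hydroxylases of the Cyp4a family, classic targets of the lipid sensor PPARA, gave 3 of the 4 largest differences among genes with a mean of at least 4 in the higher group. Cyp4a14 had 1.68 and 0.93 in Mst-null libraries, against 10.06 and 5.72 in YAP-null libraries (-6.58 ± 1.40, adjusted p = 0.0236), and its control means were 4.31 and 4.20. Cyp4a10 had 3.19 and 3.21 in Mst-null, against 9.53 and 7.26 in YAP-null (-5.19 ± 1.23, adjusted p = 0.036), at control means of 5.84 and 5.77. The wild type control libraries themselves lay far apart, at 1.77 and 6.64 in Cyp4a14 and 3.65 and 7.89 in Cyp4a10. Against the controls neither gene was called in Mst-null (adjusted p = 0.252 and 0.25) or in YAP-null (adjusted p = 0.136 and 0.238). Cyp4a31 had 1.93 and 1.22 in Mst-null, against 6.05 and 5.15 in YAP-null (-4.03 ± 0.49, adjusted p = 0.000383), and was lower than the control in Mst-null (-1.77, adjusted p = 0.0381) and higher in YAP-null (2.28, adjusted p = 0.00953). YAP-null library 1 was the higher of its pair in each of these 3 genes. Without that library the Cyp4a14 difference was -4.41 and was not called; it was also lost without either Mst-null library (-6.96 and -6.21). The Cyp4a10 call was lost without any 1 of the 4 (-6.33 to -4.05), and that of Cyp4a31 held in all 4 cases. Cyp4a genes are close paralogs that share sequence, which makes each one's count uncertain.

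Of the 15 genes with the largest fall, 7 were called higher than the control in YAP-null and not called in Mst-null, and the direct difference given for each is the test between the groups. Glis2, a Kruppel-like zinc finger factor, had 1.99 and 1.49 in Mst-null, against 5.21 and 5.99 in YAP-null (-3.85 ± 0.50, adjusted p = 0.000745), from control means of 0.78 and 0.78. Slc34a2, a sodium-phosphate cotransporter of epithelia, had 0.07 and 0.996 in Mst-null, against 4.26 and 5.05 in YAP-null (-4.12 ± 0.55, adjusted p = 0.00079). Cryab, a small heat shock protein, had 0.46 and 0.68 in Mst-null, against 3.59 and 4.60 in YAP-null (-3.52 ± 0.48, adjusted p = 0.00091). Over the control, these rose by 4.82, 3.49 and 3.44 in YAP-null, while in Mst-null their changes were 0.96, -0.64 and -0.07, none called. Cyp39a1, an oxysterol 7-alpha-hydroxylase of bile acid synthesis (chr17:43667425-43751431, plus strand), had the smallest SE of the 15: 4.44 and 4.15 in Mst-null, against 7.77 and 7.21 in YAP-null (-3.19 ± 0.26, adjusted p = 5.68e-06), with control means of 4.52 and 4.50. Calls of Glis2, Slc34a2, Cryab and Cyp39a1 held without any 1 of the 4 libraries. Timp2, a metalloproteinase inhibitor, had 1.71 and 2.07 in Mst-null, against 4.68 and 6.28 in YAP-null (-3.59 ± 0.73, adjusted p = 0.0174), and Emp1, an epithelial membrane protein, had 1.75 and 1.64 in Mst-null, against 3.87 and 6.07 in YAP-null (-3.27 ± 0.69, adjusted p = 0.021). Tlr12, a Toll-like receptor, had 1.42 and 3.72 in Mst-null, against 5.73 and 5.67 in YAP-null (-3.13 ± 0.58, adjusted p = 0.0103), so that 1 Mst-null library was nearer the YAP-null ones than its own pair. The call of Timp2 ended without Mst-null library 1 (-3.41) or YAP-null library 2 (-2.79). That of Emp1 ended without either Mst-null library (-3.33 and -3.22) or YAP-null library 2 (-2.17), and that of Tlr12 without Mst-null library 1 (-1.98) or either YAP-null library (-3.10 and -3.16).

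Axin1 and 1600002H07Rik, which RefSeq now names Tedc2, were called lower than the control in Mst-null and not called in YAP-null. Axin1, the scaffold of the complex that degrades beta-catenin (chr17:26138688-26195811, plus strand), had 2.27 and 2.10 in Mst-null, against 5.69 and 5.28 in YAP-null (-3.30 ± 0.37, adjusted p = 0.000165), with control means of 4.60 and 4.60. It was -2.42 against the control in Mst-null (adjusted p = 0.000596) and 0.88 in YAP-null (adjusted p = 0.177). 1600002H07Rik (chr17:24215054-24220851) had 0.61 and 2.06 in Mst-null, against 5.26 and 4.18 in YAP-null (-3.38 ± 0.52, adjusted p = 0.00201), and it was not called without YAP-null library 1 (-2.85). H19, an imprinted fetal long noncoding RNA (chr7:142575529-142578143, minus strand), rose over the control in both groups, by 3.54 in Mst-null and 6.55 in YAP-null (adjusted p = 4.85e-05 and 2e-07). Its levels were 5.44 and 6.24 in Mst-null, against 8.23 and 9.49 in YAP-null (-3.02 ± 0.41, adjusted p = 0.00091), and this call, like that of Axin1, held in all 4 cases. Cyp2c37, a cytochrome P450 with close paralogs, had 4.22 and 4.77 in Mst-null, against 9.16 and 6.06 in YAP-null (-3.12 ± 0.68, adjusted p = 0.0263). Raet1d, a ligand of the NKG2D receptor, had 2.29 and 1.71 in Mst-null, against 6.26 and 3.81 in YAP-null (-3.04 ± 0.59, adjusted p = 0.0135). Against the control Cyp2c37 was called lower in Mst-null (-2.59, adjusted p = 0.0281) and was not called in YAP-null (0.56, adjusted p = 0.713). Raet1d was called in neither group against the control (-1.41 in Mst-null and 1.76 in YAP-null, adjusted p = 0.188 and 0.0883). YAP-null library 1 decides the size of both, since without it Cyp2c37 differed by -1.57 and Raet1d by -1.81, neither called. Cyp2c37 was not called without Mst-null library 1 (-2.84) either, nor Raet1d without Mst-null library 2 (-2.75).

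By the difference of the changes against each control, Cib3, Gstm3, Tff3, Mup20 and Cxcl14 of the genes with the largest rise were not called (adjusted p = 0.0802 to 0.404). Of those with the largest fall, Cyp4a14, Cyp4a10, Timp2, Emp1, Tlr12, Cyp2c37, Raet1d and 1600002H07Rik were not called (adjusted p = 0.0728 to 0.428). Of all called members of the lists described next, H19, Gdf15, Egr1 and Klf6 stayed called in that test and the others did not.

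**Figure D2:**
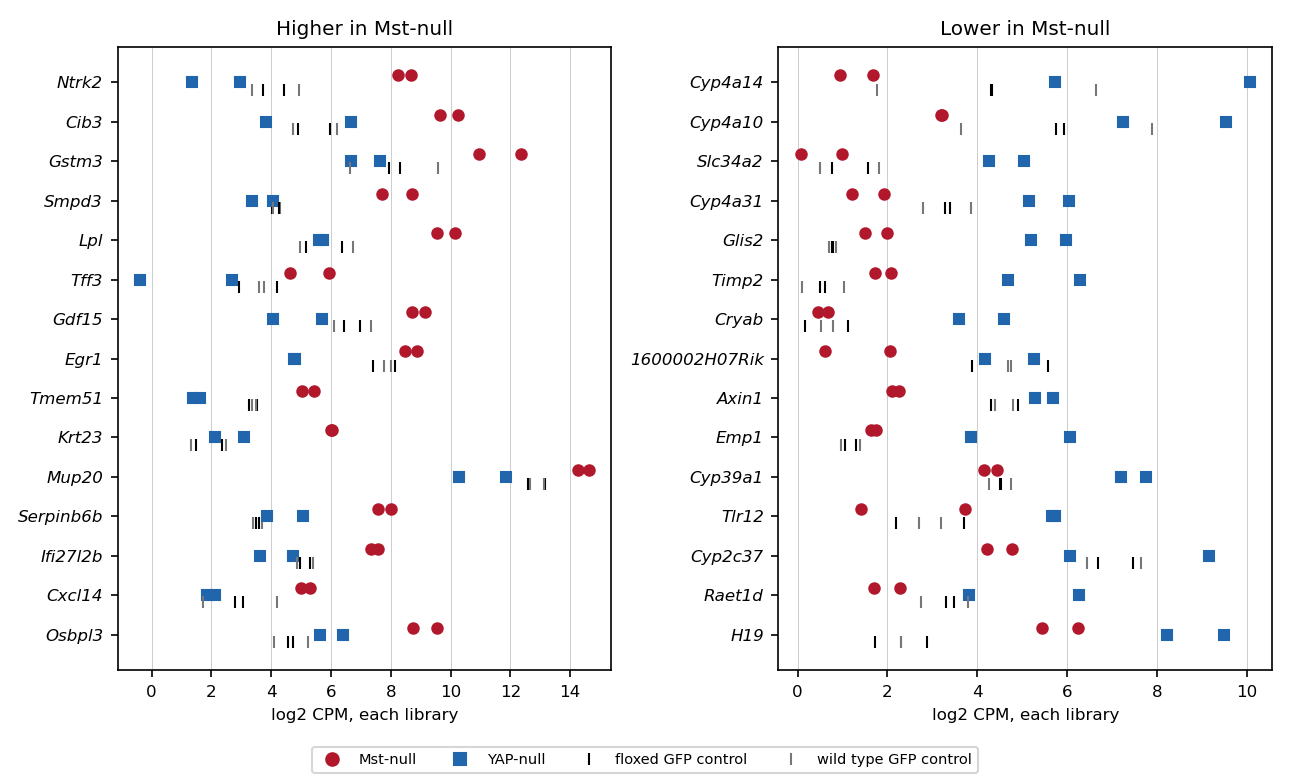
Log2 CPM of the 15 genes with the largest rise (left) and the 15 with the largest fall (right) in each Mst-null, YAP-null and GFP control library, 1 mark per library. Genes were chosen with no overlap of the Mst-null and YAP-null marks; the control marks show on which side of the controls each group lies.

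Direct YAP and TAZ target genes were called in both directions. Of 23 kept members of the list, 3 were higher in Mst-null (Ctgf, Cyr61 and Crim1), 3 were lower (Tead4, Ptpn14 and Nt5e) and 17 were not called, beside 1.2% of all genes higher and 1.32% lower, and the median difference was -0.28, beside -0.02 over all genes. By the difference of the changes against each control none of the 6 was called (adjusted p = 0.0728 to 0.497). Of the 23 direct differences 15 were negative and 8 positive. Against its own control the list had 7 genes called higher and 1 lower in Mst-null, and 14 higher and 0 lower in YAP-null. All 10681 genes gave 735 higher and 94 lower in Mst-null, and 709 and 51 in YAP-null. The list's median change was 0.885 in Mst-null and 1.75 in YAP-null, beside 0.17 and 0.21 over all genes. RefSeq promoters (GRCm38.p6, 250 bases before to 50 after the start) were searched for the TEAD motif GGAATG, or CATTCC on the other strand, in 4 of these 6 genes, and the 3 that hold it are shown, 2 of them higher and 1 lower. The motif is in capitals; Cyr61 is Ccn1 in RefSeq (chr3:145649936-145650235, minus strand), Crim1 lies at chr17:78199998-78200297 (plus strand) and Ptpn14 at chr1:189728018-189728317 (plus strand).
Cyr61: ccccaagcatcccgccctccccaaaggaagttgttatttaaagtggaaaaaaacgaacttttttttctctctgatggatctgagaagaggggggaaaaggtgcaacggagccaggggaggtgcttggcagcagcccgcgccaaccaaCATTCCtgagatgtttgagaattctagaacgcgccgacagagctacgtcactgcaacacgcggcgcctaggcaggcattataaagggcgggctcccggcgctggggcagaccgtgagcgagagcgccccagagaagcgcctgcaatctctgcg
Crim1: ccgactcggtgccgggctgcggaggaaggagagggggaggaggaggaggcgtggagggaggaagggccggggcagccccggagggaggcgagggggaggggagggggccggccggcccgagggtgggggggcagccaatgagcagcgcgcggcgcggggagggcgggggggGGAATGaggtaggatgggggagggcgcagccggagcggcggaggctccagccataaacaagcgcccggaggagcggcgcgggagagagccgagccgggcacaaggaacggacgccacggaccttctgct
Ptpn14: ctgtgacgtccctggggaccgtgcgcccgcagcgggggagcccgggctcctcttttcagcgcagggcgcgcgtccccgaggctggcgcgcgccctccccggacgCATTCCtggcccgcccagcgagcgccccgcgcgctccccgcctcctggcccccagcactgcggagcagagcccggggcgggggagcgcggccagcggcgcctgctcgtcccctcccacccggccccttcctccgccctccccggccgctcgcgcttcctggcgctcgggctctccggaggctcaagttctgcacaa
The motif began at -103 in Cyr61, -79 in Crim1 and -146 in Ptpn14, relative to the start. It was not found in the window of Nt5e, and the promoters of Ctgf and Tead4 were not searched. The motif was present on either strand in 18.2% of the 99 promoters of genes called higher, 13.5% of the 111 of genes called lower and 11.7% of the 8556 of all genes kept. A match in these letters is a description of the sequence, not a bound site.

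Ctgf, a secreted matricellular protein and the most used YAP target, had 7.40 and 7.84 in Mst-null libraries, against 6.01 and 4.73 in YAP-null libraries (2.25 ± 0.35, adjusted p = 0.0022). Both groups were above the controls, whose means were 0.81 and 0.84: Ctgf rose by 6.80 in Mst-null (adjusted p = 3e-08) and by 4.53 in YAP-null (adjusted p = 1.56e-06). Cyr61, a related matricellular protein, had 9.85 and 8.86 in Mst-null, against 7.59 and 7.66 in YAP-null (1.73 ± 0.43, adjusted p = 0.0463), with rises of 3.50 in Mst-null and 1.75 in YAP-null over the controls. Crim1, a membrane protein that binds bone morphogenetic proteins, had 7.87 and 8.08 in Mst-null, against 6.90 and 6.55 in YAP-null (1.25 ± 0.26, adjusted p = 0.0201), with rises of 2.79 in Mst-null and 1.54 in YAP-null. Ctgf, Cyr61 and Crim1 thus lay higher in Mst-null in the direct test, while the test that compares their rises over each control called none of them (adjusted p = 0.0728, 0.497 and 0.35). Of the lower targets, Tead4, a DNA-binding partner of YAP, had 0.97 and 0.84 in Mst-null, against 3.22 and 4.24 in YAP-null (-2.83 ± 0.52, adjusted p = 0.00969). Ptpn14, a phosphatase that binds YAP and restrains it, had 0.77 and 1.07 in Mst-null, against 3.19 and 3.06 in YAP-null (-2.21 ± 0.45, adjusted p = 0.0189). Both had risen over the control in YAP-null (3.78 and 2.44, adjusted p = 0.000281 and 0.00339), and the changes in Mst-null were 0.95 and 0.23, not called. Nt5e, the ectonucleotidase CD73, had 0.65 and 0.26 in Mst-null, against 4.30 and 2.81 in YAP-null (-3.10 ± 0.70, adjusted p = 0.03), and was lower than the control in Mst-null (-3.73, adjusted p = 0.00326). Ankrd1, another widely used target, had 0.04 and 0.26 in Mst-null, against 1.54 and 1.99 in YAP-null (-1.61 ± 0.47, adjusted p = 0.0845) and was not called. The Ctgf call held in all 4 cases of leaving out a library. Crim1, Ptpn14 and Nt5e were lost in each of them (1.07 to 1.42, -2.36 to -2.06 and -3.84 to -2.35). Cyr61 was lost without Mst-null library 1 (1.23) or either YAP-null library (1.70 and 1.76), and Tead4 without YAP-null library 2 (-2.32). Of 26 kept Hippo pathway components 0 were called higher and 3 lower, and these were Yap1 and again Tead4 and Ptpn14; the median was -0.12.

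**Figure D3:**
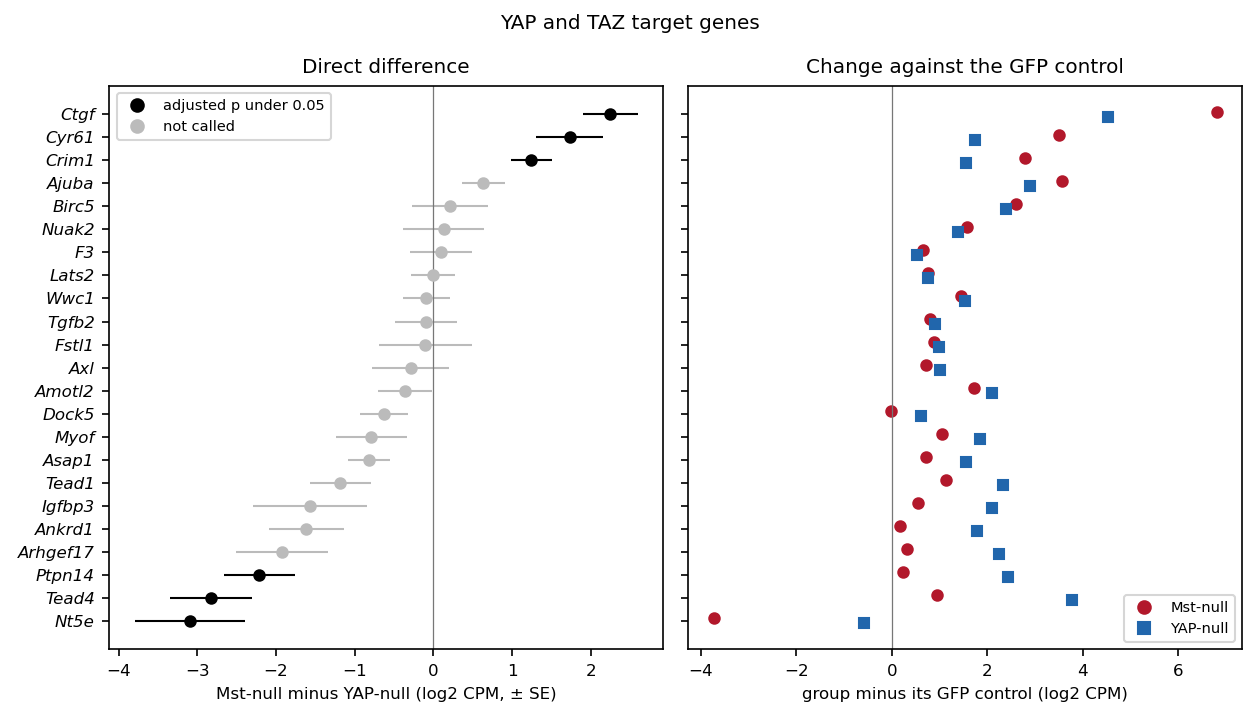
The 23 kept YAP and TAZ target genes: on the left the direct difference, Mst-null minus YAP-null, with its SE and the called genes in black, and on the right the change of each group from its GFP control, both in log2 CPM. Ctgf, Cyr61 and Crim1 were called higher in Mst-null and Tead4, Ptpn14 and Nt5e lower in the direct test; none of the 6 was called when the changes from each control were compared.

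Biliary and fetal genes gave calls in both directions. Of 17 kept cholangiocyte and progenitor genes, 2 were higher in Mst-null and 0 lower, beside 1.2% and 1.32% of all genes, with a median of -0.18. Spp1, osteopontin, had 11.85 and 11.80 in Mst-null, against 10.28 and 10.15 in YAP-null (1.60 ± 0.38, adjusted p = 0.0353), and rose over the control by 4.41 in Mst-null and 2.75 in YAP-null. Krt8, a keratin of simple epithelia that hepatocytes also make, had 10.63 and 10.23 in Mst-null, against 9.05 and 9.03 in YAP-null (1.40 ± 0.31, adjusted p = 0.0264). Nrg1, a ligand of the ErbB receptors, was the 1 gene called among 10 of that family, with 8.51 and 7.67 in Mst-null, against 6.73 and 6.35 in YAP-null (1.54 ± 0.35, adjusted p = 0.029) and rises of 5.67 in Mst-null and 4.13 in YAP-null over the controls; Btc, betacellulin, was called as well with library medians made equal. Of 12 fetal liver and tumour genes, Tff3 was higher, and Gpc3 and H19 were lower. Gpc3, glypican-3, a fetal cell surface proteoglycan (chrX:52272426-52613950, minus strand), had 4.84 and 4.08 in Mst-null, against 6.73 and 7.36 in YAP-null (-2.58 ± 0.46, adjusted p = 0.00722), at control means of -0.73 and -0.73. Afp, alpha-fetoprotein, differed by 0.50 and was not called. Lamb2, a laminin chain of basement membranes, was lower in Mst-null, with 4.74 and 3.75 there, against 5.73 and 6.02 in YAP-null (-1.64 ± 0.40, adjusted p = 0.0397); with Timp2 it made 2 lower and 0 higher of 23 extracellular matrix genes. Spp1 and Krt8 lost their calls without any 1 of the 4 libraries (1.54 to 1.67 and 1.20 to 1.59). Nrg1 lost its call without Mst-null library 1 (1.13) or either YAP-null library (1.74 and 1.35), Gpc3 without Mst-null library 2 (-2.21) or YAP-null library 2 (-2.27), and Lamb2 without Mst-null library 2 (-1.14) or either YAP-null library (-1.78 and -1.49).

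The lists of lipid metabolism held lower calls in Mst-null and no higher ones, beside 1.2% of all genes called higher and 1.32% lower. Lpl, described above, is in none of these lists. Of 19 kept fatty acid synthesis genes 2 were lower and 0 higher, 16 of the 19 differences were negative and the median was -0.94, beside -0.02 over all genes. With library medians made equal 4 were called lower, Elovl5, a fatty acid elongase (-1.50 as deposited), and Fads2, a desaturase (-1.10), being the added ones. Me1, malic enzyme, which supplies NADPH for fatty acid synthesis, had 6.66 and 6.34 in Mst-null, against 8.28 and 8.69 in YAP-null (-1.99 ± 0.31, adjusted p = 0.00215). Acacb, an acetyl-CoA carboxylase, had 5.73 and 5.39 in Mst-null, against 6.79 and 7.16 in YAP-null (-1.42 ± 0.27, adjusted p = 0.011). The list's median against the control was 0.18 in Mst-null and 0.94 in YAP-null. Fasn, fatty acid synthase, differed by -0.34 and Scd1, stearoyl-CoA desaturase, by -1.05, neither called. Of 26 kept fatty acid oxidation and PPARA target genes, 3 were lower (Cyp4a14, Cyp4a10 and Acot3) and 0 higher, 23 differences were negative and the median was -0.58; with quantile normalization the mitochondrial enzymes Cpt2 (-1.09 as deposited) and Acadl (-0.95) were called too, 5 in all. Acot3, a peroxisomal acyl-CoA thioesterase that is also higher in females, had 0.001 and -0.18 in Mst-null, against 4.95 and 1.96 in YAP-null (-3.54 ± 0.66, adjusted p = 0.0103); without YAP-null library 1 it differed by -2.05 and was not called. Cpt1a, which admits fatty acids to mitochondria, differed by -0.55 and was not called. In cholesterol synthesis 1 of 21 genes was called, lower: Tm7sf2, a sterol reductase, with 5.77 and 5.85 in Mst-null, against 6.68 and 7.10 in YAP-null (-1.08 ± 0.24, adjusted p = 0.0263), lost without any 1 of the 4 libraries (-1.29 to -0.87). Ldha, lactate dehydrogenase A, was the 1 gene called of 16 in glycolysis, with 8.99 and 9.04 in Mst-null, against 10.15 and 10.58 in YAP-null (-1.35 ± 0.31, adjusted p = 0.0314), and was likewise lost in all 4 cases (-1.56 to -1.14). The call of Me1 held in all 4, and that of Acacb ended without Mst-null library 2 (-1.24) or YAP-null library 2 (-1.23).

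Genes that mark the zones and sex of hepatocytes gave 1 or 2 calls a list, beside 2.52% of all genes called. Of 23 pericentral genes 2 were lower in Mst-null, both markers of the cells next to the central vein, and 0 were higher; with library medians made equal 2 were higher as well, Rnf43, a ubiquitin ligase that damps Wnt signalling (1.18 as deposited), and Ahr, the aryl hydrocarbon receptor (0.98). Slc1a2, a glutamate transporter, had 0.46 and 0.20 in Mst-null, against 4.002 and 2.76 in YAP-null (-3.05 ± 0.48, adjusted p = 0.00228). Oat, ornithine aminotransferase, had 3.34 and 2.97 in Mst-null, against 6.71 and 4.83 in YAP-null (-2.62 ± 0.50, adjusted p = 0.0126). Both were below the controls in both groups: Slc1a2 changed by -6.09 in Mst-null and -3.05 in YAP-null, and Oat by -5.06 in Mst-null and -2.46 in YAP-null, all 4 called. Glul, glutamine synthetase, of the same cells, differed by -0.56 and was not called. The Oat difference was -1.68 without YAP-null library 1 and -2.43 without Mst-null library 2, not called in either case, and Slc1a2 was lost without YAP-null library 1 (-2.43). Ctsc, cathepsin C, was the 1 gene called of 24 periportal genes, with 4.44 and 4.39 in Mst-null, against 6.41 and 6.68 in YAP-null (-2.13 ± 0.30, adjusted p = 0.00119), in all 4 cases too. Of 16 male-biased genes, 2 were higher (Mup20 and Cyp4a12b) and 0 lower; of 13 female-biased genes, 2 were lower (Hao2 and Acot3) and 0 higher. Cyp4a12b had 4.65 and 4.97 in Mst-null, against 0.06 and 3.36 in YAP-null (3.10 ± 0.75, adjusted p = 0.0382). It was 1.46 without YAP-null library 1 and 4.75 without YAP-null library 2, and was called in the second case only (3.27 and 2.94 without either Mst-null library). Hao2, a hydroxy acid oxidase, had -0.95 and -0.60 in Mst-null, against 3.07 and 3.82 in YAP-null (-4.22 ± 0.78, adjusted p = 0.00998), lost without Mst-null library 1 (-4.05) or YAP-null library 2 (-3.84). The labels do not state the sex of the mice. Ddx3y, on the Y chromosome, was present in every null library (5.33 and 5.50 in Mst-null, against 5.14 and 4.62 in YAP-null), and Xist, which female cells make, was low in all of them (1.12 and 1.51 in Mst-null, against 1.14 and 1.14 in YAP-null).

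Immediate early genes, which are switched on within minutes of a stimulus, gave 6 higher and 0 lower of 22 kept members, beside 1.2% and 1.32% of all genes, with a median of 0.33. By the difference of the changes Egr1 and Klf6 stayed called, and Fos, Jun, Btg2 and Ier2 did not (adjusted p = 0.0728, 0.264, 0.305 and 0.278). Egr1 is described above. Fos had 7.29 and 6.15 in Mst-null, against 3.69 and 3.85 in YAP-null (2.95 ± 0.45, adjusted p = 0.00201), at control means of 5.93 and 5.96. Klf6, a zinc finger factor, had 9.77 and 8.85 in Mst-null, against 6.73 and 6.48 in YAP-null (2.71 ± 0.32, adjusted p = 0.000276), and rose over the control in both groups (4.48 in Mst-null and 1.78 in YAP-null). Jun had 9.05 and 8.42 in Mst-null, against 6.92 and 6.86 in YAP-null (1.84 ± 0.35, adjusted p = 0.0126). Btg2, also a p53 target, had 7.40 and 6.85 in Mst-null, against 5.58 and 5.16 in YAP-null (1.75 ± 0.35, adjusted p = 0.0171), and Ier2 had 7.24 and 6.32 in Mst-null, against 5.35 and 5.17 in YAP-null (1.52 ± 0.31, adjusted p = 0.017). Against the controls, the YAP-null values of Egr1, Fos and Ier2 were called lower (-3.11, -2.19 and -1.21), and the Mst-null values of these 3 were not called (0.89, 0.79 and 0.37). The other 16 members were not called, among them Dusp1 (-0.07), Myc (-0.09) and Nr4a1 (0.04). Of 24 p53 and apoptosis genes, 3 were higher and 0 lower: Gdf15, Btg2 and Plk2, a polo-like kinase, with 8.05 and 7.03 in Mst-null, against 5.42 and 5.52 in YAP-null (2.08 ± 0.42, adjusted p = 0.0169). Of 17 genes that answer glucocorticoid or fasting 0 were higher and 3 were lower. Tsc22d3, a glucocorticoid-induced leucine zipper protein, had 1.95 and 3.53 in Mst-null, against 4.64 and 4.57 in YAP-null (-1.87 ± 0.46, adjusted p = 0.0413). Fkbp5, a co-chaperone of the glucocorticoid receptor, had 4.24 and 4.77 in Mst-null, against 6.39 and 5.79 in YAP-null (-1.58 ± 0.30, adjusted p = 0.0121), and Lpin1, a phosphatidate phosphatase, had 5.45 and 5.06 in Mst-null, against 6.96 and 6.73 in YAP-null (-1.59 ± 0.39, adjusted p = 0.0413). Fos and Klf6 kept their calls in all 4 cases. Jun, Btg2, Ier2 and Plk2 lost theirs without Mst-null library 1 (1.53, 1.48, 1.06 and 1.56) and without either YAP-null library (1.88 and 1.81, 1.96 and 1.55, 1.61 and 1.43, 2.03 and 2.12). Tsc22d3 was lost without Mst-null library 1 (-1.08) or either YAP-null library (-1.83 and -1.91), Fkbp5 without Mst-null library 1 (-1.32) or YAP-null library 1 (-1.29), and Lpin1 in all 4 cases (-1.78 to -1.40).

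Among cell cycle genes 1 was called, a share no higher than about the 2.52% of all genes. Of 37 G1/S and replication genes, Rrm2, a ribonucleotide reductase subunit, was lower, with 4.62 and 4.45 in Mst-null, against 5.998 and 6.19 in YAP-null (-1.55 ± 0.36, adjusted p = 0.0343), lost without any 1 of the 4 libraries (-1.65 to -1.46). Against their own controls 27 of 34 G2/M and mitosis genes were called higher in Mst-null and 29 in YAP-null, beside 735 and 709 of all 10681 genes. Between the null groups limma called 0 of these 34 (4 had an unadjusted p under 0.05, and with quantile normalization Top2a, a topoisomerase, was called, -1.35). Differences were negative in 28 of the 37 and 27 of the 34, with medians of -0.42 and -0.34. Mki67, the proliferation marker, differed by -1.24 and Ccnb2, a mitotic cyclin, by -0.28, neither called.

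Lists of secreted and immune-related genes held a few calls, in both directions between them, beside 1.2% of all genes called higher and 1.32% lower. The 1 call among 25 interferon response genes is a share near the 2.52% of all genes. Of 23 acute phase genes, Orm3, an orosomucoid with close paralogs, was higher, with 6.11 and 5.87 in Mst-null, against 3.95 and 3.14 in YAP-null (2.44 ± 0.53, adjusted p = 0.0258). Fgl1, a fibrinogen-like protein secreted by hepatocytes, was lower, with 6.20 and 6.84 in Mst-null, against 9.96 and 8.24 in YAP-null (-2.58 ± 0.48, adjusted p = 0.0102); it was -1.72 without YAP-null library 1 and -2.25 without Mst-null library 1, not called in either case. Of 17 chemokine and cytokine genes, Spp1 and Cxcl1 were higher and Csf1 was lower. Cxcl1, which attracts neutrophils, had 6.31 and 5.004 in Mst-null, against 2.88 and 3.11 in YAP-null (2.66 ± 0.66, adjusted p = 0.0434). Csf1, the growth factor of macrophages, had 5.71 and 5.50 in Mst-null, against 6.63 and 6.61 in YAP-null (-1.01 ± 0.24, adjusted p = 0.0341), and rose over the control in both groups (1.48 in Mst-null and 2.47 in YAP-null). Ifit1, an antiviral protein, was the 1 gene called of 25 interferon response genes, with 3.59 and 3.68 in Mst-null, against 5.35 and 5.42 in YAP-null (-1.75 ± 0.28, adjusted p = 0.00241), and this held in all 4 cases. Of 16 NRF2 and stress genes, Gstm3 was higher and G6pdx, the entry enzyme of the pentose phosphate pathway, was lower, with 2.45 and 1.60 in Mst-null, against 3.44 and 3.87 in YAP-null (-1.62 ± 0.36, adjusted p = 0.0264). Orm3 and Csf1 were lost in all 4 cases (2.04 to 2.85 and -1.12 to -0.91), Cxcl1 without Mst-null library 1 (2.01) or either YAP-null library (2.54 and 2.78), and G6pdx without Mst-null library 2 (-1.20) or either YAP-null library (-1.84 and -1.41).

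**Figure D4:**
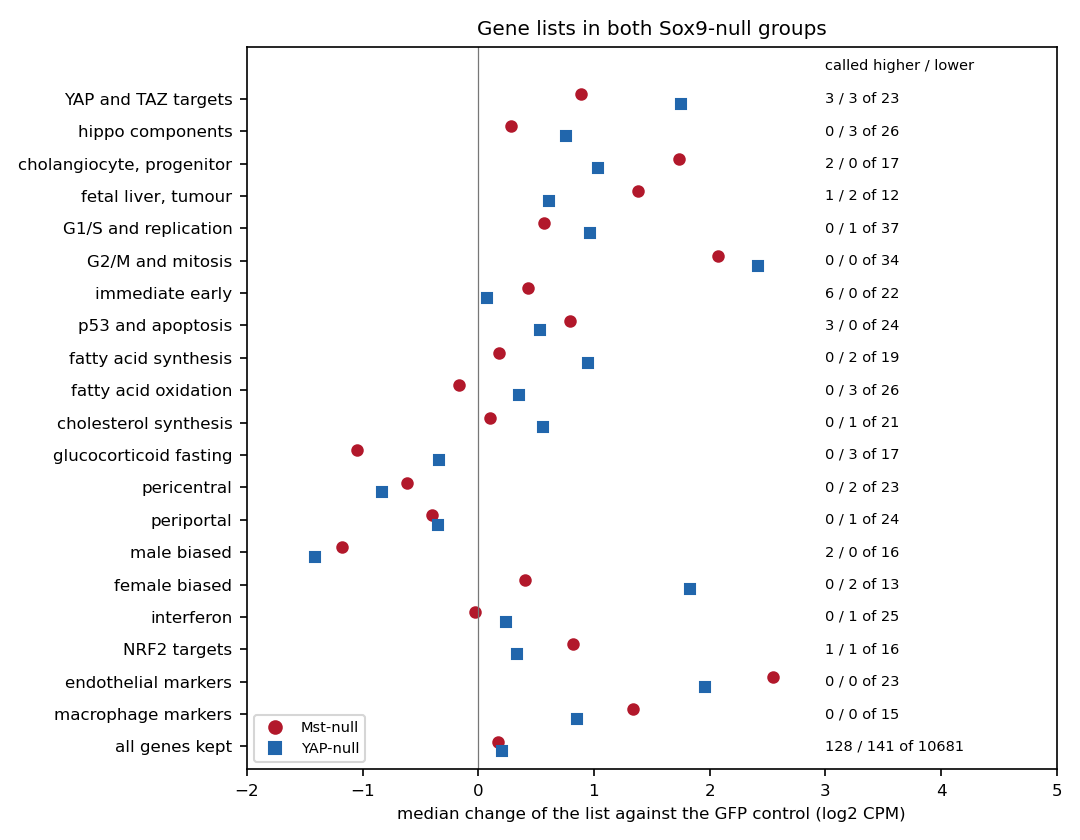
Median change of each gene list from the GFP control in Mst-null and in YAP-null, in log2 CPM, with the numbers of kept members called higher and lower in Mst-null than in YAP-null. The 6 immediate early genes called are all higher in Mst-null, the lipid lists hold only lower calls, and the endothelial and macrophage lists hold none.

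Hepatocyte identity genes were not called between the null groups: limma called 0 of 21 liver-enriched transcription factors and 0 of 21 secreted proteins (1 and 0 had an unadjusted p under 0.05, as did 15.9% of all genes), with medians of -0.11 and -0.01. It also called 0 of 27 actin and integrin genes, 0 of 29 oxidative phosphorylation subunits, 0 of 20 bile acid genes, 0 of 22 unfolded protein response genes, 0 of 17 TGF-beta pathway genes and 0 of 8 Notch pathway genes, among which 7, 1, 2, 6, 1 and 2 had an unadjusted p under 0.05, beside the same 15.9%. Endothelial and macrophage markers were summed higher in every null library than in the controls. The summed linear CPM of 24 endothelial markers, 23 of them kept, was 561 and 528 in Mst-null, against 493 and 244 in YAP-null, and ranged from 49.5 to 129 in the 4 control libraries. For 19 macrophage markers, 15 of them kept, it was 572 and 261 in Mst-null, against 240 and 167 in YAP-null, and 60.0 to 142 in the controls. For 18 stellate cell markers the sum was 179 and 234 in Mst-null, against 242 and 207 in YAP-null, and 156 to 195 in the controls. T and NK cell markers summed to 4.47 and 6.22 in Mst-null, against 5.53 and 6.38 in YAP-null, below the 8.31 to 14.1 of the controls. Erythroid markers summed to 19.6 and 44.8 in Mst-null, against 21.9 and 55.1 in YAP-null, and 48.8 to 74.3 in the controls. Between the null groups limma called 0 of the endothelial and macrophage markers (4 of the 23 and 2 of the 15 had an unadjusted p under 0.05, beside 15.9% of all genes), with 17 of the 23 and 13 of the 15 differences positive and medians of 0.16 and 0.51. Stab2, a scavenger receptor of liver sinusoids (1.98 as deposited), was called with quantile normalization and without YAP-null library 1. Between Mst-het and YAP-het limma called 3 of the 23 endothelial markers higher and 0 lower (median 0.855), Stab2 among them (2.385, adjusted p = 0.0227). All genes there gave 179 higher of 10681. Against the controls 13 of the 23 were called higher in Mst-null and 7 in YAP-null, beside 735 and 709 of all genes. In bulk samples, fewer cells of a type and less RNA per cell cannot be told apart, and the part of these cells in the differences above was not tested. Neutrophil markers gave 0 kept genes of 13 and B cell markers 0 of 10, and the bile duct markers Krt7, Krt19 and Cftr were below the filter.

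The same comparison of models in the libraries with 1 floxed Sox9 allele stood beside these values. Mst-het and YAP-het share the controls' alignment with the null groups, so their differences are given side by side and not as independent support. Between Mst-het and YAP-het 326 genes were called (3.05%). Of the 128 genes called higher between the null groups, 127 had the same sign in the het pair and 66 were called there. Of the 141 lower genes, 136 had the same sign and 48 were called. The median het difference was 1.31 in the higher genes and -1.145 in the lower genes. Ntrk2 differed by 6.30 between the null groups and by 6.42 between the het groups. The differences of Lpl were 4.17 in the null pair and 4.26 in the het pair, those of Cib3 4.69 and 4.70, and those of 1600002H07Rik -3.38 and -4.12, each called in both pairs. Some other genes had much smaller differences in the het pair. Cyp4a31 differed by -0.04 ± 0.49 (adjusted p = 0.98), Cyp4a14 by -0.91 ± 1.40 (adjusted p = 0.782), Fos by 0.43 ± 0.45 (adjusted p = 0.662) and Btg2 by 0.04 ± 0.35 (adjusted p = 0.971). The YAP-het libraries lay far apart in Cyp4a14 (4.84 and 0.92) and in Cyp4a10 (7.11 and 2.41). The het differences of these genes are therefore poorly determined and do not show that a difference was absent. Egr1 differed by 3.90 in the null pair and by 1.44 in the het pair (adjusted p = 0.016 there). Sox9 differed by -1.10 in the null pair and by 1.39 in the het pair (adjusted p = 0.0612 there), neither called. The fatty acid synthesis, fatty acid oxidation and cholesterol synthesis lists had median differences of 0.005, 0.0775 and 0.405 in the het pair. There 1, 0 and 2 of their genes were called higher and 0 lower, beside 179 higher and 147 lower of all 10681 genes. When the difference between the pairs was itself tested, limma called 0 genes; 322 (3.01%) had an unadjusted p under 0.05 and the smallest adjusted p was 0.127. That count was 3 with a replicate block, 18 without YAP-het library 1 and 63 with the deviations before rescaling.

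**Figure D5:**
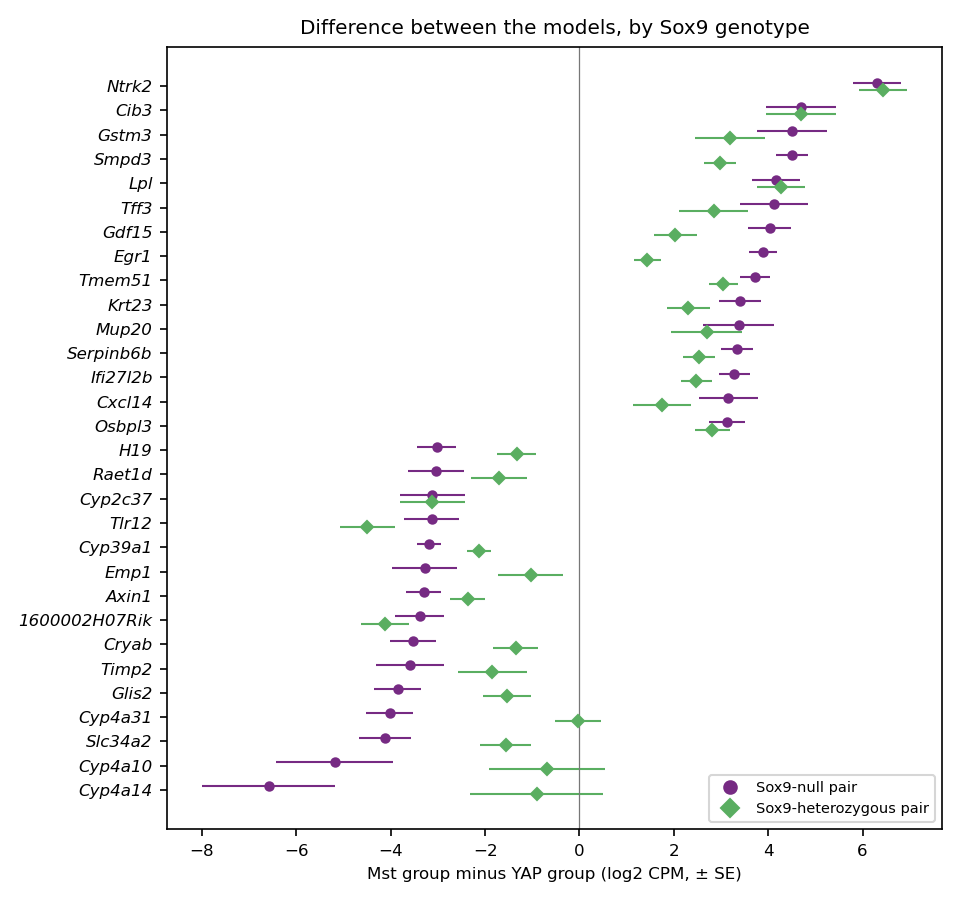
Mst group minus YAP group for the genes with the largest rises and falls, in the Sox9-null pair and in the Sox9-heterozygous pair, in log2 CPM with SE. Ntrk2, Lpl and Cib3 have similar differences in both pairs. In the heterozygous pair Cyp4a14, Cyp4a10 and Cyp4a31 differ by -0.91 ± 1.40, -0.68 ± 1.23 and -0.04 ± 0.49, and the first 2 have wide SE.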

How the data were processed

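RNA of sorted hepatocytes was isolated with the RNAqueous Micro kit and read with the Ion AmpliSeq mouse transcriptome panel, 1 amplicon per gene, per the labels' protocols. The deposited values are log2 CPM per gene symbol, which the labels call RPM; the aligner, like the counting tool and genome build, was not given in the sources used here. In these deposited log2 values the control means of both experiments had been made equal (98.9% of kept genes within 0.05). Each library's distance from its group mean was a whole multiple of a gene's own step in 10671 of 10681 kept genes (tolerance 2e-06), so they had been rescaled by a factor per gene (median 1.58), which took the median SD within a group to 0.288, against 0.187 without it. Both steps bear on every p-value.

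Groups came from the labels. The 6 group means were estimated together in limma 3.58.1 (R 4.3.3) from the deposited values, with a prior variance that follows expression. Tests were two-sided with Benjamini-Hochberg adjustment over the genes kept, those that reached a log2 value of 1 in 2 or more libraries. The fit was tested on simulated data first. No label states that replicate libraries are from different mice, so the p-values may rest on technical spread alone. Genes named are Sox9, Yap1, Stk4, Stk3, Ctgf, Cyr61 and Ankrd1, up to 15 called genes in each direction by size with no overlap of libraries and a mean of 4 or more where higher, and up to 6 called members of each list; uncalled list members named beside them, and called genes outside this rule in the closing section, were chosen after their values were seen. The comparison, members and lists were chosen with earlier results of these data known. Alternatives were no filter, a minimum log2 value of 3, a pseudocount of 1, 2 scalings, no trend, a replicate block and deviations before rescaling. Others were a fit to the 4 null libraries alone, a fold threshold and leaving out each library. In the last, the lone library left is assumed to vary like the other groups. Gene positions are from GENCODE M21 (GRCm38) and promoters from RefSeq (GRCm38.p6).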

Additional observations from a re-analysis of the deposited data

How the results depend on the processing

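All 68 called genes named kept their direction in the alternatives run on them, which was largely fixed in advance. The null libraries of called genes do not overlap, so leaving out 1 of them cannot reverse a sign. The filters, no trend, the replicate block, the deviations before rescaling and the fit to the 4 null libraries keep the group means. The Mst-null minus YAP-null count of 269 was 289 with a pseudocount of 1, 321 with library medians made equal, 356 with quantile normalization, 261 with a difference of at least 1 and 232 with a minimum of 3. It was 69 with no filter, 165 with no trend, 2177 with the deviations before rescaling, 29 by the difference of the changes, 392 in a fit to the 4 null libraries alone and 95 to 121 without 1 library. Of the 68, 24 were called without any 1 of the 4 null libraries, 12 were called in none of these cases, and 18 were called by the difference of the changes. For Mst-null against its control (829) the count was 416 with no filter, 2815 before rescaling and 348 to 642 without 1 library; for YAP-null against its control (760) it was 369, 2960 and 328 to 471, and 484 and 449 with medians equal and quantile normalization. For Mst-het minus YAP-het (326) it was 78 with no filter, 171 with no trend, 2732 before rescaling and 82 to 323 without 1 library. The test between the pairs, with 0 calls, gave 63 before rescaling, 3 with the replicate block and 0 to 18 without 1 library. Before rescaling the spread is smaller by construction; the cause of the other moves was not tested. The deviations of same-numbered null libraries correlated with r = 0.00953, so the replicate numbers do not pair the 2 null groups. Between Mst groups these correlations were -0.644 to -0.315. Same-numbered libraries of the Mst groups were thus linked in the deposited values, while the main fit takes them as independent. The origin of this link was not tested. With a replicate block 250 genes were called between the null groups, 802 and 720 against the controls and 284 between the het groups, and with crossed numbers, a choice made after seeing the data, 781 in Mst-null against its control. Depth is unknown, so the precision of low values cannot be given.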

Other observations

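By the difference of the changes, which carries the error of both controls, 29 genes were called, and 11 of them are not among those named by size or list in the report. 3 of these, chosen after their values were seen, were higher in Mst-null than in YAP-null. As differences of the changes, they were Fam171b by 5.39, Camk2b, a calcium and calmodulin dependent kinase subunit, by 2.996, and Elf3, an epithelial ETS factor, by 2.84. Fam171b had means of 3.26 in Mst-null and a low -2.002 in YAP-null, with control means of 1.13 and 1.26. Camk2b had 3.87 in Mst-null and 0.90 in YAP-null, with control means of 3.97 and 4.001, so it was not above the control in Mst-null. Elf3 had 6.34 in Mst-null and 3.48 in YAP-null, with control means of 2.68 and 2.67.

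Called genes were counted by position, with no test of their spread. In windows of 20 Mb (GRCm38, 135 windows), the highest share was 9.52% (8 of 84 kept genes) in the window from 20 to 40 Mb of chromosome 19, which holds part of the Cyp2c cluster. The next were the windows from 80 to 100 Mb of chromosome 16 (6 of 66, 9.09%) and from 140 to 160 Mb of chromosome 4 (11 of 121, 9.09%), beside 2.52% of all genes. In the chromosome 16 window all 6 called genes were higher in Mst-null, among them Ncam2, a neural adhesion molecule, by 2.45 and Hunk, a kinase, by 1.96. These windows were chosen after their values were seen.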
